A study of Mus musculus with 9 samples.

Results

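Fibronectin and the thrombospondins are encoded in the mouse by 6 genes, Fn1, Thbs1, Thbs2, Thbs3, Thbs4 and Comp, which were followed in differentiating C2C12 cells. The members were chosen by name, with earlier results of these data known, and they are 6 of the 52780 genes in the count table. C2C12 is an immortal mouse myoblast line that fuses into myotubes after serum is reduced. mRNA selected by its polyA tail was sequenced from 9 samples at day 4 of differentiation, in 3 groups of 3 samples (si Ctrl, plus the knockdowns si mH2A1.1 and si mH2A1.2). Samples of si Ctrl are labelled wild type and received no siRNA against macroH2A1. The study lists a scramble siRNA as control, and the labels do not say whether these samples received it. The other samples received siRNA at 10 nM against either splice isoform of the histone variant macroH2A1, macroH2A1.1 (si mH2A1.1) or macroH2A1.2 (si mH2A1.2). All samples come from the same cell line without other alleles, and siRNA was delivered repeatedly before and during differentiation. The study describes the replicates as biologically independent, and the labels give no detail of the cultures.

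Fibronectin is a large dimeric glycoprotein that cells assemble into fibrils through integrins, and the fibrils carry collagens, fibulins and latent TGF-beta complexes. Thbs1 and Thbs2 encode trimeric matricellular thrombospondins with type 1 repeats that bind CD36 and activate or hold growth factors. Thbs3, Thbs4 and Comp encode pentameric thrombospondins that lack these repeats, and Thbs4 and Comp are best known from tendon, cartilage and injured muscle. In muscle, fibronectin forms part of the matrix around myoblasts and satellite cells.

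Fibronectin is bound by integrins at the tripeptide Arg-Gly-Asp, and several thrombospondins also encode this tripeptide, so its codons are shown here to set the members side by side before the integrin genes are described. They were searched in frame in the longest coding transcript of each gene in GENCODE M21, with codons counted from the start codon. Each run shows the Arg-Gly-Asp codons in capitals with 18 coding bases on each side.
Fn1 codon 1614: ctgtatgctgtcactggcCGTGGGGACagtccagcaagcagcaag
Thbs1 codon 927: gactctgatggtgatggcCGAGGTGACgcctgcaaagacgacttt
Thbs2 codon 928: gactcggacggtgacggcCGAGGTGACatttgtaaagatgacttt
Thbs4 codon 564: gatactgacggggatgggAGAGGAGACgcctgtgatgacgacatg
Comp codon 365: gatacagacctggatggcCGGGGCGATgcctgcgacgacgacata

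The run from Fn1 lies at the cell-binding site of fibronectin, and Fn1 held a further match at codon 2181. The runs from Thbs1 and Thbs2 shared 37 of 45 bases, and those from Thbs4 and Comp shared 34 of 45. The Thbs1 run shared 33 of 45 bases with the Thbs4 run and 31 of 45 with the Comp run. Thbs4 held an additional match at codon 138, and the transcript searched for Thbs3 held no match over its 956 codons.

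Total counts per sample ranged from 36924252 to 42223108, so 3 counts, taken as the smallest amount told from 0, correspond to 0.0691 to 0.0826 CPM (read counts scaled to library size, with TMM factors). This floor covers counting error only. Both macroH2A1 isoforms come from H2afy, and this gene was measured as the sum of both. H2afy was at 56.3 to 62.4 CPM with si Ctrl, at 30.0 to 38.9 CPM with si mH2A1.1 and at 43.2 to 47.2 CPM with si mH2A1.2. The 3 groups did not overlap for this gene. Against si Ctrl, H2afy changed by -0.85 on the log2 scale after si mH2A1.1 (adjusted p = 0.00331) and by -0.39 after si mH2A1.2 (adjusted p = 0.108). The table does not show which isoform was lost. The first principal component (45.6% of the variance) set the si mH2A1.1 samples, at 38.4 to 82.5, apart from the other 6, at -48.4 to -6.38.

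Fn1 fell with si mH2A1.1, and it was more abundant with si mH2A1.2 in all 3 samples without passing the test against si Ctrl. Fn1 (ENSMUSG00000026193) spans chromosome 1, 71585520 to 71653200, minus strand (GRCm38), has 17 annotated transcripts, and its longest coding transcript has 46 exons. It was at 8269, 10550 and 8439 CPM in si Ctrl replicates 1, 2 and 3. With si mH2A1.1 it was at 2647, 5958 and 4470 CPM, and with si mH2A1.2 at 19010, 17460 and 14330 CPM. Every si mH2A1.1 sample was thus below every si Ctrl sample, and every si mH2A1.2 sample was above them, with the lowest value in si mH2A1.1 replicate 1. Ranked by CPM, which is not scaled for gene length, Fn1 was first of all genes in each si mH2A1.2 sample. It stood between 2 and 5 in si Ctrl, and between 6 and 24 with si mH2A1.1. Ranked by CPM per kb of exon, it stood at 20, 20 and 26 with si mH2A1.2. By this measure it was between 39 and 59 in si Ctrl and between 74 and 206 with si mH2A1.1. The coefficient of variation was 38.1% with si mH2A1.1, against 14.1% with si mH2A1.2 and 14.0% with si Ctrl.

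The log2 fold change of Fn1 with si mH2A1.1 against si Ctrl was -1.06 ± 0.27 (SE, adjusted p = 0.0333, edgeR quasi-likelihood test with Benjamini-Hochberg adjustment), or 2.09-fold lower. This call was lost when any si Ctrl sample, si mH2A1.1 replicate 1 or 3, or si mH2A1.2 replicate 2 was left out, with adjusted p between 0.012 and 0.1145 over the 9 omissions and a log2 fold change between -1.35 and -0.80. For the knockdown of macroH2A1.2 against si Ctrl it was 0.90 (95% confidence interval 0.30 to 1.49, adjusted p = 0.124), which did not pass. DESeq2 (adjusted p = 0.00927) and edgeR without the filter on low counts (adjusted p = 0.0365) called this rise. Between the knockdowns Fn1 was 3.88-fold lower with si mH2A1.1 (log2 fold change -1.96 ± 0.28 (SE), adjusted p = 0.00137), and it passed whichever of the 9 samples was left out.

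Thbs1 fell with si mH2A1.1 and rose with si mH2A1.2. Thbs1 (ENSMUSG00000040152) encodes thrombospondin 1, which activates latent TGF-beta and binds CD36 and CD47. The gene spans chromosome 2, 118111876 to 118127133, plus strand. It was at 883, 1060 and 892.8 CPM with si Ctrl, at 317.4, 501.1 and 525.6 CPM with si mH2A1.1, and at 1919, 1895 and 1601 CPM with si mH2A1.2. The groups did not overlap, and si mH2A1.1 replicate 1 was again the lowest sample. The log2 fold change was -1.08 ± 0.19 (SE, adjusted p = 0.00876) with si mH2A1.1, or 2.11-fold lower. With si mH2A1.2 it was 0.93 ± 0.19 (SE, adjusted p = 0.0347), or 1.91-fold higher. Directly compared, Thbs1 was 4.03-fold lower with si mH2A1.1 than with si mH2A1.2 (log2 fold change -2.01 ± 0.19 (SE), adjusted p = 0.000263).

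Leaving out each sample in turn kept the fall of Thbs1 with si mH2A1.1 in all 9 fits (adjusted p 0.0107 to 0.0407). The rise with si mH2A1.2 passed only when si mH2A1.1 replicate 1 or 2 was left out, and it was lost without any si Ctrl or si mH2A1.2 sample and without si mH2A1.1 replicate 3 (adjusted p up to 0.131), while the log2 fold change stayed between 0.88 and 1.02.

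**Figure D1:**
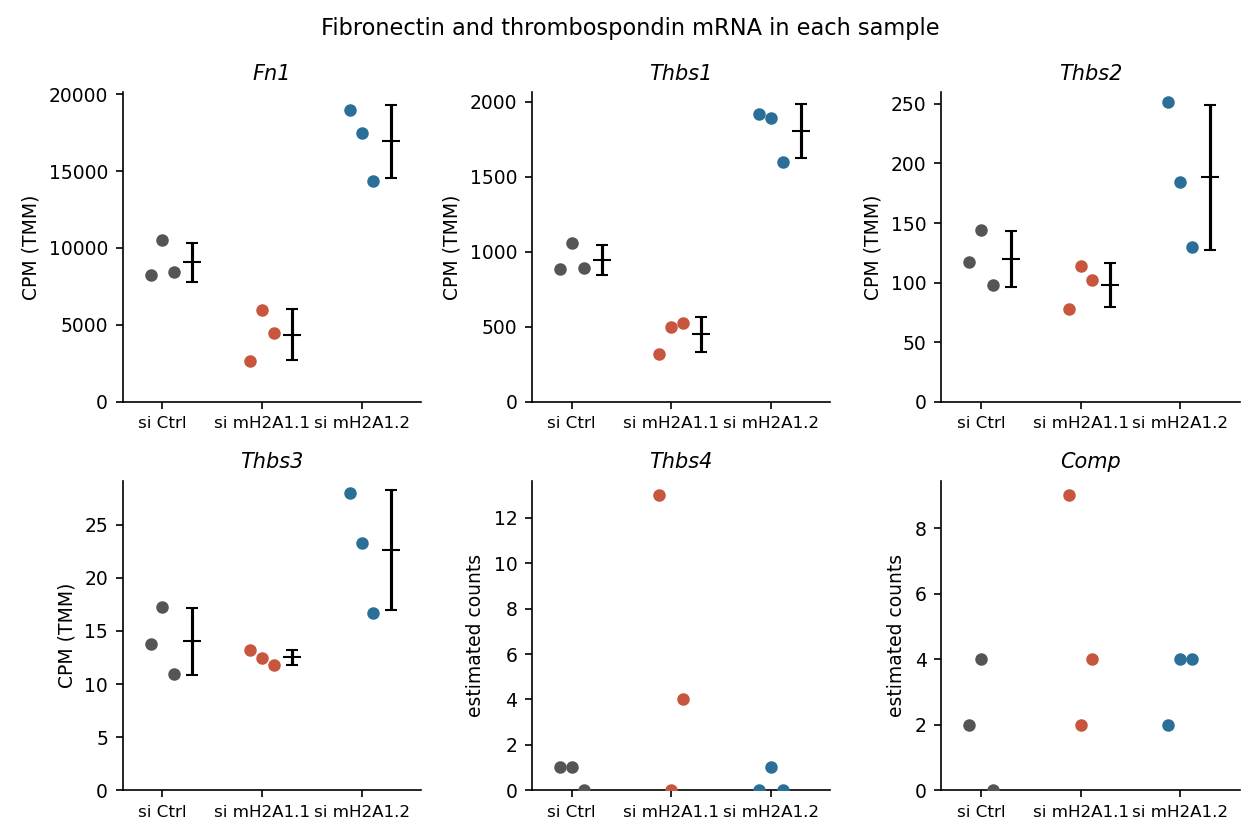
Level of each gene in each of the 9 samples. Values are CPM after TMM scaling for Fn1, Thbs1, Thbs2 and Thbs3, and estimated counts for Thbs4 and Comp. Points are samples in replicate order. The bar beside each group is the mean ± SD (n = 3), drawn for all genes except Thbs4 and Comp. The groups are separate for Fn1 and Thbs1, si mH2A1.1 and si Ctrl overlap for Thbs2 and Thbs3, and no sample of Thbs4 or Comp exceeds 13 counts.

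Thbs2 and Thbs3 did not pass the test against si Ctrl in either knockdown, and both were lower with si mH2A1.1 than with si mH2A1.2. Thbs2 (ENSMUSG00000023885, chromosome 17, 14665500 to 14694235, minus strand) encodes thrombospondin 2, an inhibitor of angiogenesis that also limits matrix metalloproteinase activity. It was at 117, 144.5 and 98.26 CPM with si Ctrl, at 77.57, 113.9 and 102.5 CPM with si mH2A1.1, and at 251.3, 184.5 and 129.6 CPM with si mH2A1.2. The si Ctrl range overlapped both knockdowns, which did not overlap each other. The log2 fold change was -0.29 (95% confidence interval -0.81 to 0.23, adjusted p = 0.441) with si mH2A1.1 and 0.65 (0.13 to 1.17, adjusted p = 0.203) with si mH2A1.2. Between the knockdowns it was -0.94 ± 0.24 (SE, adjusted p = 0.0183). This last call was lost without si mH2A1.1 replicate 1 or 3 or si mH2A1.2 replicate 1 or 2, with adjusted p up to 0.0778.

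Thbs3 (ENSMUSG00000028047, chromosome 3, 89215180 to 89226837, plus strand) was at 13.81, 17.24 and 10.98 CPM with si Ctrl, at 13.19, 12.5 and 11.84 CPM with si mH2A1.1, and at 27.97, 23.27 and 16.7 CPM with si mH2A1.2. All si mH2A1.1 samples lay within the si Ctrl range, and 2 of 3 si mH2A1.2 samples lay above it. The log2 fold change was -0.16 (95% confidence interval -0.61 to 0.29, adjusted p = 0.629) with si mH2A1.1 and 0.69 (0.24 to 1.14, adjusted p = 0.116) with si mH2A1.2. With the replicate number as a block, which for these 2 groups paired the samples, the latter was 0.69 with an adjusted p of 0.0358 and passed. DESeq2 also called it (adjusted p = 0.029). Between the knockdowns Thbs3 differed by -0.86 ± 0.20 (SE, adjusted p = 0.0147), a call lost without si mH2A1.1 replicate 3 or si mH2A1.2 replicate 2 (adjusted p up to 0.0541).

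The promoters of Thbs2 and Thbs3 are shown because the promoter set used held none of Fn1, Thbs1 or Comp, and Thbs4 was not tested. Promoters of Thbs2, Thbs3 and Thbs4 were matched in RefSeq (GRCm38.p6), and each spans 250 bases before to 50 after the start. The NF-Y motif was searched as CCAAT, the GC box of Sp1 as GGGCGG, the TATA box as TATAAA, the AP-1 motif as TGANTCA, an E-box bound by MyoD as CAGCTG, and the TEAD motif as CATTCC. Both strands were searched, and matches are in capitals. Both runs read 5′ to 3′ on the strand of the gene.
Thbs2, chr17:14694213-14694512, minus strand: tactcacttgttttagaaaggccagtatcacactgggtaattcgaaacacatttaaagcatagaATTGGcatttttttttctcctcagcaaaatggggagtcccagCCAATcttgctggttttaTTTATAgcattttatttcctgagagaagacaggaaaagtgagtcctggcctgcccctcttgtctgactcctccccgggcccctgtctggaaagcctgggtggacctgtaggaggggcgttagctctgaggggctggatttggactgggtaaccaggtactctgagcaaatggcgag
Thbs3, chr3:89214930-89215229, plus strand: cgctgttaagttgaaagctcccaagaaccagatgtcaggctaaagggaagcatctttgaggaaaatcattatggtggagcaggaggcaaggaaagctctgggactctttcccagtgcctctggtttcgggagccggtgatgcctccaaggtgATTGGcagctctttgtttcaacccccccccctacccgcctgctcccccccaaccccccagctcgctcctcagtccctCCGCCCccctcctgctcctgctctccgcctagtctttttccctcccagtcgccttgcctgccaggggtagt

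The Thbs2 promoter held 2 matches of the NF-Y motif and 1 of the TATA box on the opposite strand, and the Thbs3 promoter held 1 match each of the NF-Y motif and the GC box. None of these matches overlapped another. Over 32851 promoters of the same length, 37.4% held the NF-Y motif, 13.6% the TATA box and 35.7% the GC box. The AP-1, MyoD and TEAD motifs, held by 7.81%, 16.3% and 14.7% of all promoters, had no match in these 2 windows. The Thbs4 window held 3 matches of the GC box and 2 overlapping ones of the TEAD motif. The GC content was 48.3% for Thbs2, 59.0% for Thbs3 and 72.0% for Thbs4, against a median of 52.7% over all promoters.

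Thbs4 and Comp were close to the detection limit in all samples and were not tested, because both failed the filter on low counts. Thbs4 (ENSMUSG00000021702, chromosome 13, 92751590 to 92794818, minus strand) had 1, 1 and 0 counts with si Ctrl, 13, 0 and 4 with si mH2A1.1, and 0, 1 and 0 with si mH2A1.2. Comp (ENSMUSG00000031849, chromosome 8, 70373558 to 70382066, plus strand), which encodes cartilage oligomeric matrix protein, had 2, 4 and 0 counts with si Ctrl, 9, 2 and 4 with si mH2A1.1, and 2, 4 and 4 with si mH2A1.2. The highest count of either gene was in si mH2A1.1 replicate 1, and the samples of the groups overlapped. Markers of tissues where these genes are abundant were measured beside them. Kera (tendon) and Acan and Matn1 (cartilage) were at or below 3 counts in all samples. The summed level of the 4 tendon markers was 25.1 to 62.9 CPM and that of the 5 cartilage markers 39.8 to 49.3 CPM, carried by Scx (29.8 CPM on average with si Ctrl) and Sox9 (45.3 CPM).

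Of the 6 genes, 4 were tested. With si mH2A1.1 against si Ctrl, 2 were called lower (Fn1 and Thbs1), where 4.93% of the 19545 tested genes were called lower. With si mH2A1.2 against si Ctrl, 1 was called higher (Thbs1), against 1.37% of all tested genes. With the replicate block 2 members were called higher (Thbs1 and Thbs3), and the number of genes called in this comparison rose from 460 to 1005. Between si mH2A1.1 and si mH2A1.2, 4 members were called lower, against 10.5% of all tested genes. The study had already named Fn1 and Thbs1 from these data, so these shares of all tested genes are given for scale only. The comparisons of both knockdowns share the si Ctrl samples. The median log2 fold change over all tested genes was -0.009, 0 and -0.009 in the 3 comparisons, in the order given.

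**Figure D2:**
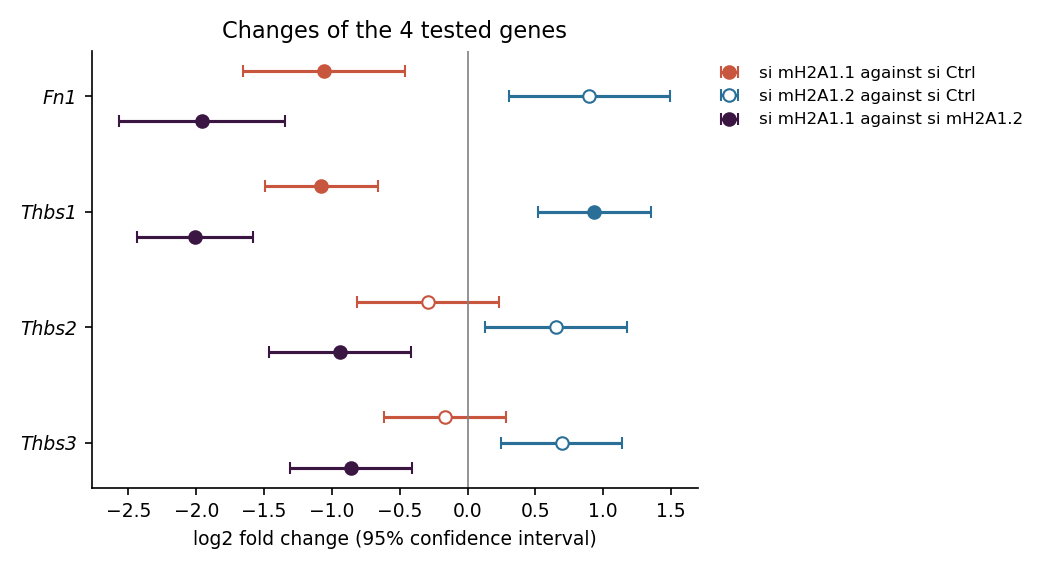
Log2 fold change of the 4 tested genes in the 3 comparisons, with 95% confidence intervals; filled symbols mark an adjusted p of 0.05 or less (edgeR). Fn1 and Thbs1 lie near -1 with si mH2A1.1 and near 0.9 with si mH2A1.2, while Thbs2 and Thbs3 lie closer to 0 with si mH2A1.1, at -0.29 and -0.16.

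The makeup of the thrombospondin mRNA changed with the knockdown, through a smaller part of Thbs1 and larger parts of Thbs2 and Thbs3 with si mH2A1.1. Thbs2 and Thbs3 averaged 98 and 12.5 CPM with si mH2A1.1, against 119.9 and 14.0 CPM with si Ctrl. Their larger parts thus do not reflect higher levels. To compare paralogs, counts were divided by the annotated exon length of each gene (6073 bp for Thbs1, 7003 bp for Thbs2, 4823 bp for Thbs3, 3289 bp for Thbs4 and 2967 bp for Comp), and each gene was expressed as a percentage of the sum over the 5 thrombospondins. Thbs1 made up 88.1%, 87.8% and 90.0% of the total with si Ctrl, 78.9%, 81.4% and 83.5% with si mH2A1.1, and 88.4%, 90.9% and 92.3% with si mH2A1.2. The si mH2A1.1 samples were below all others, and the si Ctrl and si mH2A1.2 samples overlapped.

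Thbs2 made up 10.1%, 10.4% and 8.59% with si Ctrl, 16.7%, 16.1% and 14.1% with si mH2A1.1, and 10.0%, 7.68% and 6.48% with si mH2A1.2. Thbs3 made up 1.74%, 1.80% and 1.39% with si Ctrl, 4.13%, 2.56% and 2.37% with si mH2A1.1, and 1.62%, 1.41% and 1.21% with si mH2A1.2. For both genes the si mH2A1.1 samples were above all others. Thbs4 and Comp reached at most 0.147% and 0.113% of the total, both in si mH2A1.1 replicate 1.

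The share of Thbs1 differed between the 3 groups (two-sided exact permutation test over 9 samples, p = 0.00714, adjusted p = 0.0214 over 6 values), where the smallest p the design allows is 0.00357. The same exact permutation test gave p = 0.00714 for Thbs2 and p = 0.0107 for Thbs3, each with an adjusted p of 0.0214. These shares add up to 100%, so the 3 results are not independent. The mean share of Thbs1 was 7.40 percentage points lower with si mH2A1.1 than with si Ctrl, that of Thbs2 5.93 points higher and that of Thbs3 1.37 points higher (exact permutation test of 3 against 3, p = 0.1 for each, the smallest this test allows). Between si mH2A1.2 and si Ctrl the mean shares differed by 1.87, -1.64 and -0.23 points for Thbs1, Thbs2 and Thbs3 (exact permutation test, p = 0.2, 0.2 and 0.3). For Thbs4 and Comp the test over 3 groups gave adjusted p = 0.197 and 0.102.

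The adjusted p of the Thbs1 and Thbs2 shares rose to 0.0536 without si Ctrl replicate 1 or si mH2A1.2 replicate 2 or 3 in the exact permutation test. That of Thbs3 exceeded 0.05 without any of the si Ctrl or si mH2A1.2 samples, with 0.114 as the highest value.

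**Figure D3:**
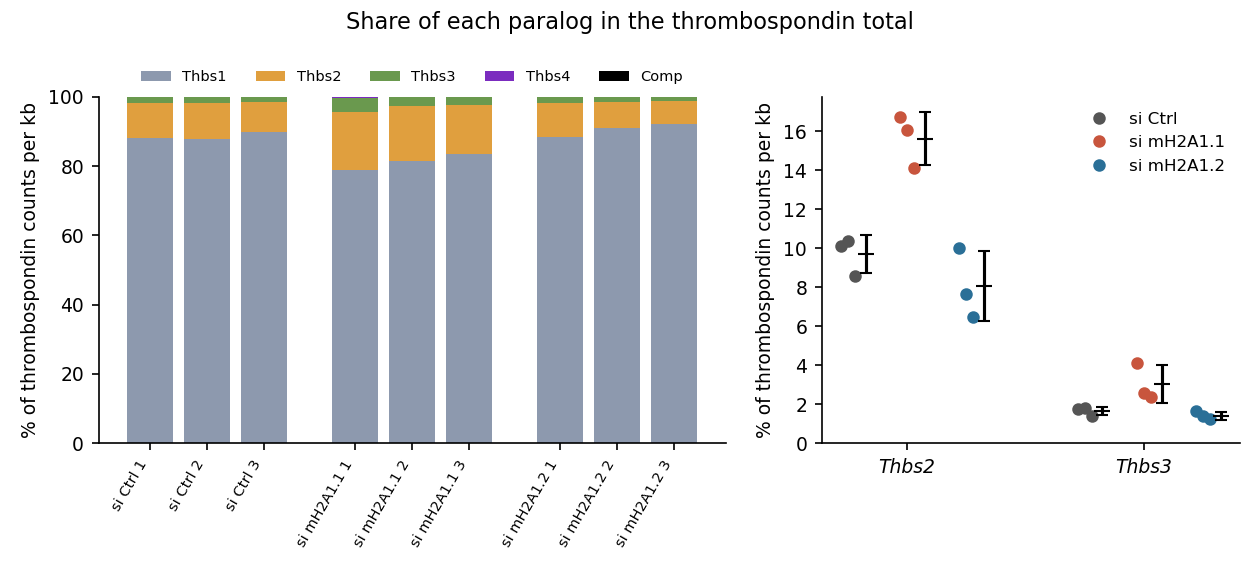
Share of each paralog in the summed thrombospondin counts per kb of exon, as stacked bars for each of the 9 samples (left) and as points for Thbs2 and Thbs3 with the mean ± SD of each group (right, n = 3). The part of Thbs1 is smallest in the 3 si mH2A1.1 samples, at 78.9% to 83.5%, and those of Thbs2 (14.1% to 16.7%) and Thbs3 (2.37% to 4.13%) are largest there.

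The ratio of Fn1 to Thbs1 did not pass the test of a difference between the groups. Per kb of exon (11685 bp for Fn1), Fn1 exceeded Thbs1 4.87-, 5.17- and 4.91-fold with si Ctrl, 4.33-, 6.18- and 4.42-fold with si mH2A1.1, and 5.15-, 4.79- and 4.65-fold with si mH2A1.2. Replicate 2 of si mH2A1.1 had the highest and replicate 1 of si mH2A1.1 the lowest ratio, and all groups overlapped. The log2 ratio was 2.32 ± 0.05, 2.30 ± 0.29 and 2.28 ± 0.08 (SD, n = 3), and the test over 3 groups did not pass (exact permutation test, p = 0.982, adjusted p = 0.982). Without si mH2A1.1 replicate 2 the adjusted p of this exact permutation test was 0.0571, and the difference in log2 ratio between si mH2A1.1 and si mH2A1.2 went from 0.016 to -0.15.

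The genes whose levels most resembled Fn1 over the 9 samples were Thsd7a, Pcdhgc3, Cep97, Col16a1 and Cercam, with Pearson's r of log2 CPM between 0.990 and 0.993, among 9778 genes of at least 10 CPM on average. After subtracting the group means, r was 0.935 to 0.978. These genes were picked for high r in the same samples, so this value is not separate support. Thsd7a encodes a membrane protein with thrombospondin type 1 repeats and Col16a1 a fibril-associated collagen. Thbs1 ranked 10 in this order (r = 0.987, within groups 0.919), Thbs2 627 (r = 0.878) and Thbs3 1369 (r = 0.77). The 9 points fall into 3 groups and share their libraries, and no p is given. Thsd7a averaged 54.5 CPM in the control, 30.8 CPM after the macroH2A1.1 knockdown and 89.6 CPM after that of macroH2A1.2.

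Thbs1 was most like Cep97, Col12a1, Nfib, Fn1 and Slit2 (r between 0.987 and 0.993, within groups 0.881 to 0.929). Col12a1, a fibril-associated collagen with fibronectin type III repeats, averaged 436.7 CPM in the control, 131.3 CPM after the macroH2A1.1 knockdown and 1182 CPM after that of macroH2A1.2. It fell with si mH2A1.1 (log2 fold change -1.73, adjusted p = 0.0107) and rose with si mH2A1.2 (log2 fold change 1.44, adjusted p = 0.0454).

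**Figure D4:**
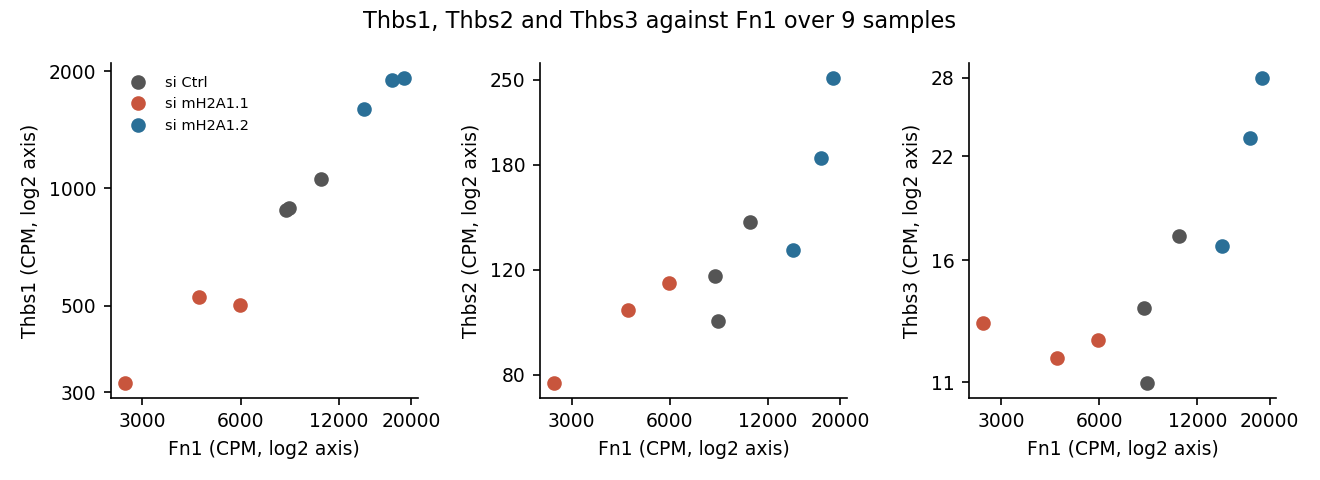
CPM of Thbs1, Thbs2 and Thbs3 against CPM of Fn1 in the 9 samples, both axes on a log2 scale; points are samples coloured by group. Thbs1 follows Fn1 over all groups (r = 0.987), while Thbs3 is spread between 10.98 and 17.24 CPM over the 6 si Ctrl and si mH2A1.1 samples.

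The matrix receptors were read from a list of 13 fibronectin receptor genes, all tested. With si mH2A1.1, 1 was called higher (Itgb7), where 6.18% of all tested genes were called higher, and 2 were called lower (Itgb5 and Itga8). DESeq2 and the replicate block also called Itgb3 lower and Itgb6 higher there, and the block called Itga4 higher. With si mH2A1.2, 2 were called higher (Itgav and Itgb5) and none was called lower by edgeR, against 0.982% of all tested genes called lower. At an unadjusted p under 0.05, 2 of the 13 were lower, and DESeq2 called 1 of them (Itgb8). With the replicate block 4 were called higher, Itgb3 and Sdc2 in addition, and 2 lower (Itgb8 and Itga4). The median log2 fold change of the list was -0.23 and 0.05 in these comparisons. Itgb1, the common beta subunit, was the most abundant per kb, at 1366 CPM on average in the control, 1318 CPM after the macroH2A1.1 knockdown and 1360 CPM after that of macroH2A1.2 (adjusted p = 0.809 and 0.988). Values that follow in this order are for the control and for the knockdowns of macroH2A1.1 and macroH2A1.2. Sdc2, a heparan sulfate proteoglycan, was at 387.8, 343.3 and 627.8 CPM (adjusted p = 0.599 and 0.116).

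Itgav and Itgb5 encode the subunits of an integrin that binds Arg-Gly-Asp in vitronectin and other matrix proteins. Itgb5 was at 121.3 CPM with si Ctrl, fell to 81.6 with si mH2A1.1 (log2 fold change -0.57, adjusted p = 0.0268) and rose to 199.5 with si mH2A1.2 (0.72, adjusted p = 0.028). Itgav was at 159.3, 133.5 and 254.4 CPM and rose with si mH2A1.2 (0.68, adjusted p = 0.0408). Itgb7, best known from leukocytes, rose with si mH2A1.1 from 1.28 to 6.66 CPM (log2 fold change 2.38, adjusted p = 0.0206). Itga8 fell from 2.22 to 0.69 CPM (log2 fold change -1.67, adjusted p = 0.0124).

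Between si mH2A1.1 and si mH2A1.2, 2 of the 13 receptor genes were called higher and 5 lower, against 12.0% and 10.5% of all tested genes. These shares are also the background for the lists that follow. Against si Ctrl the background was 4.93% lower and 6.18% higher with si mH2A1.1, and 0.982% lower and 1.37% higher with si mH2A1.2.

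Among 9 genes for thrombospondin receptors and uptake, 1 was called lower with si mH2A1.1 (Itga3, log2 fold change -0.94, adjusted p = 0.0142). With si mH2A1.2, 1 was called higher (Sdc1, 0.57, adjusted p = 0.0499) and 1 lower (Itga6, -0.62, adjusted p = 0.0363). Itga3 and Itga6 encode subunits of laminin-binding integrins that also bind thrombospondin 1. Calr, a chaperone that also mediates thrombospondin signalling at the cell surface, was the most abundant per kb at 520.3, 623.6 and 584 CPM (adjusted p = 0.307 and 0.687). Lrp1, the endocytic receptor of thrombospondins, was at 1431, 1113 and 2439 CPM (adjusted p = 0.229 and 0.0688), and both DESeq2 and the replicate block called it higher with si mH2A1.2. The median log2 fold change of the list was -0.16 and 0.08. Between the knockdowns 4 of the 9 genes were called lower and 2 higher with si mH2A1.1.

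Of 10 genes for fibronectin matrix partners and crosslinkers, Tgm2 was called higher with si mH2A1.1 and Emilin1 lower, and Pxdn and Emilin1 were called higher with si mH2A1.2. Tgm2, the transglutaminase that crosslinks fibronectin, rose from 154.7 to 341.8 CPM (log2 fold change 1.14, adjusted p = 0.00369). Emilin1, an elastic fibre glycoprotein, changed by -0.68 (adjusted p = 0.0197) and 0.97 (adjusted p = 0.0138). Pxdn, the peroxidase that crosslinks collagen IV, changed by 1.08 with si mH2A1.2 (adjusted p = 0.0234). The most abundant per kb with si Ctrl were Hspg2 (perlecan), at 2498, 2044 and 2993 CPM, and Lox (lysyl oxidase), at 496, 277.7 and 910.7 CPM, which did not pass edgeR's test in either knockdown. Lox had adjusted p = 0.119 and 0.219. DESeq2 and the replicate block called Lox lower with si mH2A1.1, and the block called it higher with si mH2A1.2. Both fits also called Fbln2 lower with si mH2A1.1, and DESeq2 called Fbn1, Tnc and Fbln2 higher with si mH2A1.2. The median log2 fold change of the list was -0.39 and 0.80, and 5 of 10 genes were called lower and 1 higher with si mH2A1.1 than with si mH2A1.2.

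A further list held 15 TGF-beta ligands, latency proteins, receptors and targets. With si mH2A1.1, 2 were called higher (Tgfb2 and Tgfbr1) and 3 lower (Tgfb3, Ltbp1 and Skil). DESeq2 called 6 lower there, and the replicate block called 9 lower, Ccn2 among them. In the knockdown of macroH2A1.2, 4 were called higher (Ltbp2, Ltbp3, Tgfbr2 and Skil) and none lower (0 at an unadjusted p under 0.05 and 0 by DESeq2), and with the replicate block 6 were called higher, Ccn2 and Tgfb2 in addition. Ltbp2, a matrix protein of the latent TGF-beta binding family, was the largest of these, rising from 19.4 to 77.4 CPM (log2 fold change 1.99, adjusted p = 0.00426). Tgfbr2, the type II receptor, changed by 0.78 (adjusted p = 0.0253). Tgfb3 was the most abundant per kb with si Ctrl and fell from 169.8 to 120.4 CPM with si mH2A1.1 (log2 fold change -0.50, adjusted p = 0.0339). Ccn2, a matricellular TGF-beta target, was at 78.2, 32.2 and 230.7 CPM (adjusted p = 0.0879 and 0.11, edgeR without the block). The median log2 fold change of the list was -0.57 and 0.59. Between the knockdowns 12 of 15 genes were called lower and 1 higher with si mH2A1.1, against 10.5% and 12.0% of all tested genes.

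**Figure D5:**
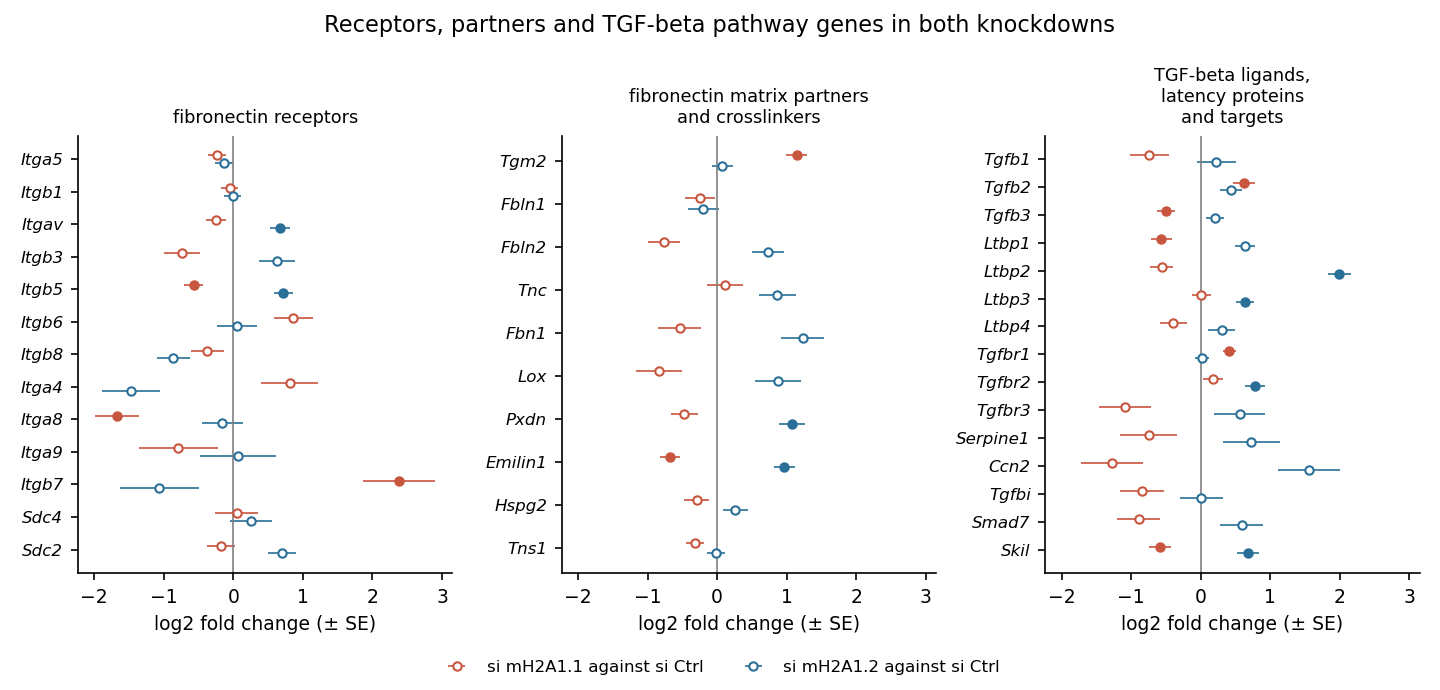
Log2 fold change ± SE of each gene of 3 lists in either knockdown against si Ctrl; filled symbols mark an adjusted p of 0.05 or less. Both comparisons share the si Ctrl samples. Itgb1 and Itga5 lie near 0 in both knockdowns, and Ltbp2 reaches 1.99 with si mH2A1.2.

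Of 12 targets of YAP and SRF, which respond to adhesion and the actin cytoskeleton, Myl9 was called higher and Amotl2 and Tagln lower with si mH2A1.1, and Tagln was called higher with si mH2A1.2 (with Fhl2 in addition under the replicate block). Tagln, an actin-binding protein of smooth muscle, was at 53.3, 21.4 and 154.8 CPM (log2 fold change -1.32, adjusted p = 0.0354, and 1.54, adjusted p = 0.046). Myl9, a myosin light chain, changed by 1.00 with si mH2A1.1 (adjusted p = 0.0169). Ankrd1 and Vcl, the most abundant per kb, did not pass in either knockdown (adjusted p between 0.353 and 0.8). The median log2 fold change of the list was -0.18 and 0.31. Between the knockdowns 6 of the 12 genes were called lower and 1 higher with si mH2A1.1.

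Genes that share domains with the members were read from lists fixed for their domains. Of 19 other genes with thrombospondin type 1 repeats, 13 were tested. With si mH2A1.1, 3 were called lower (Thsd7a, Thsd7b and Spon2) and 1 higher (Sspo), and with si mH2A1.2 none was called by edgeR. At an unadjusted p under 0.05, 3 were higher and 1 lower with si mH2A1.2, and DESeq2 and the replicate block each called 2 higher (Thsd7a and Spon2). Spon2, a secreted matrix protein and the most abundant of the list per kb, was at 68.8, 25.4 and 179.6 CPM (log2 fold change -1.44, adjusted p = 0.0271, and 1.38, adjusted p = 0.0654). Cfp, properdin, was at 8.03, 8.65 and 7.95 CPM. Of 14 other genes with fibronectin type III repeats, 12 were tested, Tnxb and Col14a1 were called higher and Col12a1 lower with si mH2A1.1, and Col12a1 was called higher with si mH2A1.2, where DESeq2 and the replicate block also called Tnr lower. Tnxb, tenascin X, rose from 0.0884 to 2.83 CPM (log2 fold change 4.96, adjusted p = 0.00222). Its mean with si Ctrl was close to the floor of 3 counts, so the size of this change is uncertain. Ncam1 and Tnc, the most abundant per kb, did not pass edgeR's test in either knockdown, with adjusted p of 0.097 and 0.581 for Ncam1 and of 0.802 and 0.133 for Tnc. DESeq2 called Ncam1 lower with si mH2A1.1 and Tnc higher with si mH2A1.2. Between the knockdowns 4 of the 13 tested genes with type 1 repeats were called lower and 1 higher with si mH2A1.1. For the 12 tested genes with fibronectin type III repeats, 3 were called lower and 3 higher.

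Markers of the cell states that a C2C12 culture can hold were measured beside the members. In bulk samples, fewer cells of a state and less RNA per cell cannot be told apart. The summed level of 9 myotube genes was 19850 to 29360 CPM with si Ctrl, 18970 to 22320 with si mH2A1.1 and 16890 to 21670 with si mH2A1.2. By edgeR, 1 of the 9 was called lower with si mH2A1.1 (Myog) and 2 with si mH2A1.2 (Des and Tnnt3). DESeq2 and the replicate block also called Myh3 lower and Des higher with si mH2A1.1, and Ckm lower with si mH2A1.2. The block called Ckm higher with si mH2A1.1 as well. Ckm, Des and Tnnt3 were called higher by edgeR with si mH2A1.1 than with si mH2A1.2, and Myog lower. Genes of proliferating cells summed to 240.4 to 391.6 CPM with si Ctrl, 344.3 to 723 with si mH2A1.1 and 192.3 to 286 with si mH2A1.2. None of these 5 was called against si Ctrl by edgeR without the block, although 4 were higher with si mH2A1.1 at an unadjusted p under 0.05. There DESeq2 called 2 higher and the replicate block called 4 (Aurkb, Top2a, Mki67 and Ccnb1). All 5 were called higher with si mH2A1.1 than with si mH2A1.2. The summed level of 6 genes of unfused myoblasts was 185.1 to 234.4, 158.7 to 216.5 and 219.2 to 309.6 CPM. Cd34, the largest part of this sum, was at 102.2, 64.2 and 170.3 CPM on average. Myf5, a myogenic factor of myoblasts, fell with si mH2A1.2 (log2 fold change -0.84, adjusted p = 0.0422). It was the only 1 of the 6 called against si Ctrl by edgeR without the block. The block also called Pax7 higher with si mH2A1.1, and DESeq2 called Spry1 higher with si mH2A1.2. Between the knockdowns, Myf5 and Pax7 were called higher with si mH2A1.1 than with si mH2A1.2, and Id3, Cd34 and Spry1 lower. Adipocyte, endothelial and macrophage markers summed to at most 0.339, 2.94 and 0.6 CPM. The part of these cell states in the values of Fn1 and the thrombospondins was not tested.

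Neighbouring genes that share exons with the members could share reads, since the strand used in counting is not given in the sources used here. Apol7d overlaps exons of Fn1 on the opposite strand and had at most 22 counts in a sample. Gm29233 lies inside Thbs1 on the opposite strand, with at most 60 counts. Mtx1, which encodes a mitochondrial import protein and overlaps exons of Thbs3 on the opposite strand, averaged 24.0, 25.5 and 23.4 CPM (adjusted p = 0.631 and 0.903). Gm13986, whose start lies 674 bp from that of Thbs1, was at 3.07, 2.06 and 2.91 CPM. Reads of Thbs3 and Mtx1 in the shared exons cannot be told apart.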

How the data were processed

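PolyA mRNA of 9 samples was read as single reads of 50 bp. The authors ran Salmon in its quasi-mapping mode against GRCm38 and deposited estimated counts per gene, whole numbers without normalization. They also deposited a normalized signal, these counts divided by 1 size factor per sample, which was not used for tests here. Names, exon lengths and positions come from GENCODE M21, which names 52762 of the 52780 genes.

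Counts were tested in R 4.3.3 with edgeR 4.0.16 (quasi-likelihood test in its legacy form, TMM, filterByExpr, Benjamini-Hochberg adjustment over 19545 genes). All 9 samples were fitted together with no replicate term, and a gene was called at an adjusted p of 0.05 or less. The test was checked on simulated data. Shares were tested by two-sided exact permutation of the sample labels. The alternatives were DESeq2 1.42.0, its size factors, other filters, the replicate block, the 2 groups alone, a stricter call rule, other lengths, and leaving out each sample. Samples with the same replicate number deviated together for si Ctrl and si mH2A1.2 (r = 0.331, 0.291 and 0.196), and less for si mH2A1.1 and si Ctrl (r at most 0.098) and for both knockdowns (0.092 to 0.116). Sample codes run consecutively within each replicate number, and the labels do not say what the codes stand for.

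The members and lists were chosen with earlier results of these data known. Named from each list were the 2 genes most abundant per kb with si Ctrl, the 2 called genes with the largest change, and further called genes where a count was 5 or less. Like genes were the 5 with the highest r. Figures were drawn with matplotlib 3.10.9.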

Additional observations from a re-analysis of the deposited data

How the results depend on the processing

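Directions of the called member changes held under all alternatives, and the calls depended on the samples and tool. Against si Ctrl, DESeq2 called 3354 genes in the knockdown of macroH2A1.1 and 1113 in that of macroH2A1.2, where edgeR called 2171 and 460, and 3 members in the latter (Fn1, Thbs1 and Thbs3). Without the filter 2 members were called there (Fn1 and Thbs1). With the replicate block 4065 and 1005 genes were called in these comparisons, and 2 members in the latter (Thbs1 and Thbs3), and the block changed no other member call. Against si Ctrl the block called 9 TGF-beta genes (Ccn2 among them) and Lox lower in the knockdown of macroH2A1.1. There it called 1895 of all 19545 tested genes lower. For these groups r was 0.084 to 0.098 for same numbers and -0.074 to -0.021 for unlike numbers. Deviations from a group mean cancel within the group, so negative r for unlike numbers is partly forced. Whether the replicates were paired is not stated. At an adjusted p of 0.01 and a log2 fold change of 0.8, 352, 35 and 1247 genes and 1, 0 and 2 members were called in the 3 comparisons. With labels exchanged only within replicate numbers (replicate block), the adjusted p of the Thbs1, Thbs2 and Thbs3 shares was 0.0556, the smallest this design allowed for them, at differences between the knockdowns of -9.27, 7.57 and 1.60 percentage points.

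Leaving out each sample gave 605 to 2928, 74 to 544 and 2251 to 4616 called genes and 1 to 2, 0 to 2 and 2 to 4 called members. Differences in share between the knockdowns ranged from -10.4 to -8.09 points for Thbs1, from 6.78 to 8.55 for Thbs2, from 1.05 to 1.93 for Thbs3, from 0.0127 to 0.0864 for Thbs4 and from 0.0138 to 0.0622 for Comp, and that in the log2 ratio of Fn1 to Thbs1 from -0.15 to 0.106. Those of Thbs4 and Comp passed without si mH2A1.1 replicate 2. The uncalled Thbs3 change with si mH2A1.1 was 0.01 without si Ctrl replicate 2. Without the filter, Thbs4 and Comp did not pass in any comparison (adjusted p 0.114 to 0.95). Depth limits Thbs4 and Comp, at 0 to 13 counts. The cause of these changes was not tested.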
